A study of Homo sapiens with 2 samples.

Results

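The peaks described here are the regions of chromosomes 4, 8, 13 and 18 to which RNA recovered with the transcription factor GATA2 was mapped. All peaks of the deposited list on these 4 chromosomes were taken, with no other condition, which gave 297 of 2692 peaks (11.0%). Chromosome 4 held 112 of them, chromosome 8 held 108, chromosome 13 held 41 and chromosome 18 held 36. The series consists of 1 HA immunoprecipitate and 1 input library of K562, a suspension line of chronic myelogenous leukaemia. Both came from cells with a GATA2 transgene that were given doxycycline at 1 µg/mL for 5 hours and, for 24 hours, the photoreactive nucleoside 4-thiouridine at 100 µM. Ultraviolet light of 365 nm and 0.3 J/cm2 then crosslinked RNA to protein. The peak list belongs to the immunoprecipitate, and no values of the input were used. The labels name neither the promoter of the transgene nor whether the cells are a single clone.

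GATA2 is a zinc finger protein that binds DNA in blood stem and progenitor cells, and the title of the series concerns contacts of such factors with RNA. CLIP crosslinks a protein to the RNA it touches, trims the RNA, precipitates the protein and sequences what remains attached. A factor that works on chromatin is surrounded by newly made transcripts of the genes nearby. Chromosomes 13 and 18 are textbook examples of gene-poor chromosomes, chromosome 4 carries long stretches without genes, and chromosome 18 is known to lie towards the edge of the nucleus in many cell types. Chromosome 13 is acrocentric: its short arm holds ribosomal RNA genes and satellite repeats.

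There is 1 library, so no difference below was tested over replicates. The read depth behind a peak is unknown. Intervals are 95% intervals for counting error only, exact Poisson for densities and exact Clopper-Pearson for shares, and they treat peaks as independent, which neighbouring peaks may not be. Positions are hg19 coordinates with the first base of a chromosome numbered 1. The score is the value the authors gave each peak. Its scale is not stated and its lowest value in the list is 50.

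The label of gene-poor chromosomes was checked by counting genes per chromosome in the RefSeq table of GRCh38.p14. No gene's position was compared with a peak. The 4 chromosomes carried 2091 protein-coding genes, 769 on chromosome 4, 714 on chromosome 8, 338 on chromosome 13 and 270 on chromosome 18. In genes per Mb, up to the end of the last gene in that table, they were the 4 lowest of the 23 chromosomes other than Y, with 2.96 on chromosome 13, 3.36 on chromosome 18, 4.04 on chromosome 4 and 4.92 on chromosome 8. Chromosome 8 stood just below chromosome 5, the lowest of the remaining 19, which had 4.98. The label therefore holds clearly for chromosomes 13, 18 and 4, and by a small margin for chromosome 8.

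Peaks were sparse on these chromosomes for their length, but not for their number of genes. Over the span that each chromosome's outermost peaks enclose, the 4 together had 0.586 peaks per Mb (0.521 to 0.656), against 0.996 (0.957 to 1.04) on all other chromosomes. They held 11.0% of the peaks on 17.4% of the span. Chromosome 13 was the sparsest of the 23 with 0.428 peaks per Mb (0.307 to 0.581), followed by chromosome 18 with 0.479 (0.335 to 0.663) and chromosome 4 with 0.590 (0.485 to 0.709). Chromosome 8 had 0.739 (0.606 to 0.892) and ranked 6 from the bottom. The interval of chromosome 4 overlaps that of chromosome 3 (0.637, from 0.528 to 0.761), which has 5.38 genes per Mb, so these neighbours in the order do not differ beyond counting error. Nor do the intervals separate chromosome 13 from chromosome 18, or chromosome 18 from chromosome 4. Each of the 4 lay below the interval of chromosomes 17 and 19 together, which had 1.65 peaks per Mb (1.44 to 1.88). That was not particular to them, since the median of the 19 other chromosomes, 0.942, lay below it too.

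Counted per gene, the shortfall was not seen. The 4 chromosomes had 14.2 peaks per 100 protein-coding genes (12.6 to 15.9), and the other chromosomes had 13.3 (12.8 to 13.9). Chromosome 8 reached 15.1 (12.4 to 18.3), chromosome 4 reached 14.6 (12.0 to 17.5), chromosome 18 reached 13.3 (9.34 to 18.5) and chromosome 13 reached 12.1 (8.70 to 16.5). All 4 intervals include the value of the other chromosomes. Gene-dense chromosome 19, with 24.8 genes per Mb, had only 5.93 peaks per 100 genes (4.74 to 7.32), the fewest of the 23. Chromosome 17 had 12.1 (10.2 to 14.3).

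Genes on chromosomes 4, 13 and 18 are long, and per length of gene the peaks of these chromosomes were again few. The mean protein-coding gene measured 92.8 kb on the 4 chromosomes together, against 61.4 kb on the other chromosomes and 22.6 kb on chromosome 19. Per Mb of summed gene length, in which overlapping genes count more than once, the 4 chromosomes had 1.53 peaks (1.36 to 1.71) and the others 2.17 (2.09 to 2.26). Chromosomes 13 and 18 both had 1.21, with intervals of 0.870 to 1.64 and of 0.850 to 1.68. Chromosome 4 had 1.58 (1.30 to 1.90), above 2 of the 19 others. Chromosome 8, with a mean gene of 83.6 kb, had 1.81 (1.48 to 2.19), an interval that includes the value of the other chromosomes. Over the 23 chromosomes, genes per Mb and peaks per Mb had a Spearman's rho of 0.82 and a Pearson's r of 0.61. The 2 densities rest on unlike lengths. Genes were counted up to the end of the last gene, and peaks between the first and last peak. All 23 points come from the same library. Chromosome 19 lies far out on the gene axis, and chromosome 15 had 1.78 peaks per Mb.

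**Figure D1:**
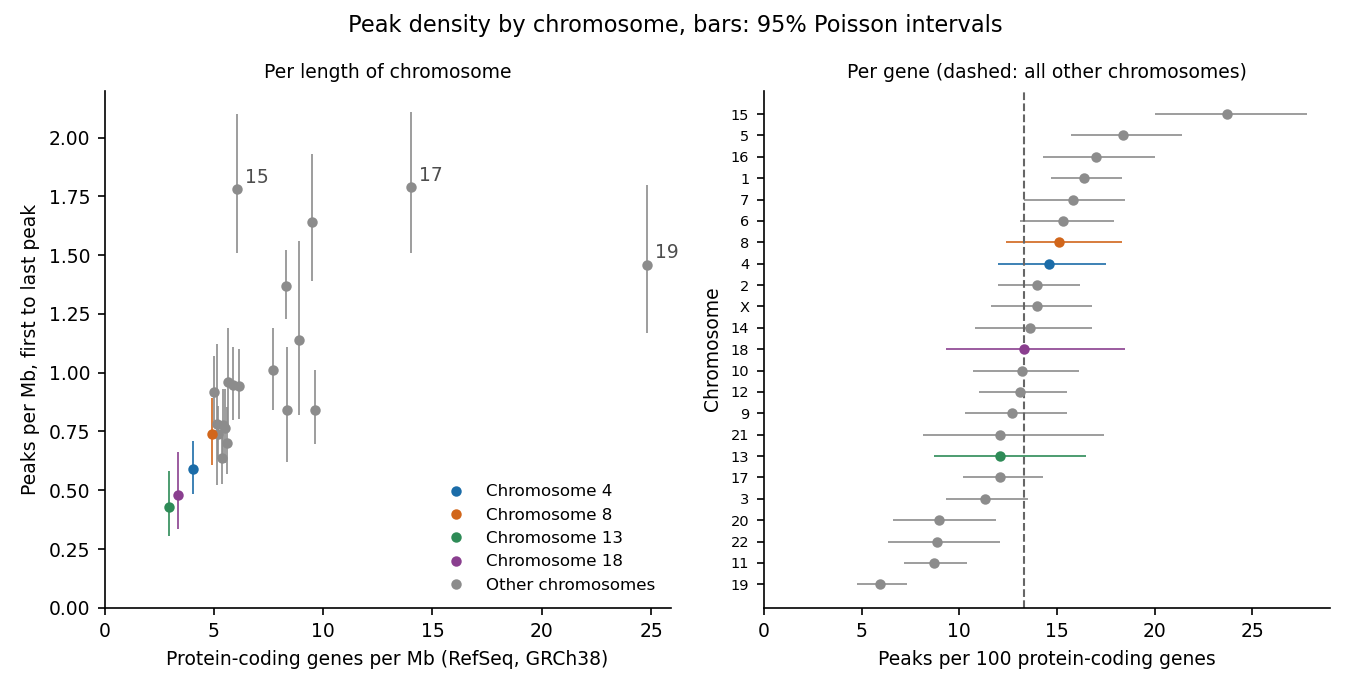
Left, peaks per Mb between first and last peak against protein-coding genes per Mb up to the last gene's end, for 23 chromosomes. Right, peaks per 100 protein-coding genes. Bars are 95% Poisson intervals; chromosomes 13, 18 and 4 lie at the lower left, with 0.428, 0.479 and 0.590 peaks per Mb, while on the right all 4 coloured intervals cross the dashed line at 13.3.

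Whether single peaks lie in genes, exons or introns was not analysed here, since the gene table is of another build and positions were not carried between builds. The distribution along each chromosome can still be described in windows of 1 Mb, counted from position 1 and filled by the midpoints of the peaks. Of 532 such windows on the 4 chromosomes, 358 (67.3%) held no peak, against 55.3% of 2510 windows elsewhere and 34.8% of 141 windows on chromosomes 17 and 19. Empty windows made up 73.3% of chromosome 13, 69.2% of chromosome 18, 67.5% of chromosome 4 and 61.2% of chromosome 8. On chromosome 13 the windows ahead of the first peak, which starts at 19254727, include its short arm. Counted from the window of the first peak, 68.0% of chromosome 13 was empty and 65.9% of the 4 together. From that start, chromosomes 18, 13 and 4 had the highest shares of the 23, while chromosome 8, with 61.2%, ranked 6 from the top. The 19 others spanned 30.0% to 64.8% around a median of 53.9%.

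The occupied windows were mostly occupied by a single peak. On the 4 chromosomes 107 windows held 1 peak, 42 held 2, 8 held 3 and 17 held 4 or more. The last group made up 3.20% of the windows and contained 82 peaks (27.6%), against 39.3% of the peaks elsewhere. Single chromosomes varied widely in this share: the 19 others spanned 10.0% to 67.6% around a median of 33.1%, and 7 of them lay below 27.6%. Chromosome 4 had 36.6%, chromosome 8 had 30.6%, chromosome 18 had 11.1% and chromosome 13 had 9.76%. Chromosome 4 had 9 of these windows and chromosome 8 had 6, while chromosomes 13 and 18 had 1 each. Unevenness in itself was not particular to these chromosomes: the 47 fullest windows (8.83%) held at least 50.0% of their peaks, and elsewhere the corresponding share of windows was 9.80%. The variance of the counts over their mean, from the first peak on, was 2.23 on chromosome 4, 2.47 on chromosome 8, 1.22 on chromosome 13 and 1.43 on chromosome 18. The median of the 19 other chromosomes was 2.04, with a range from 1.22 to 8.07.

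**Figure D2:**
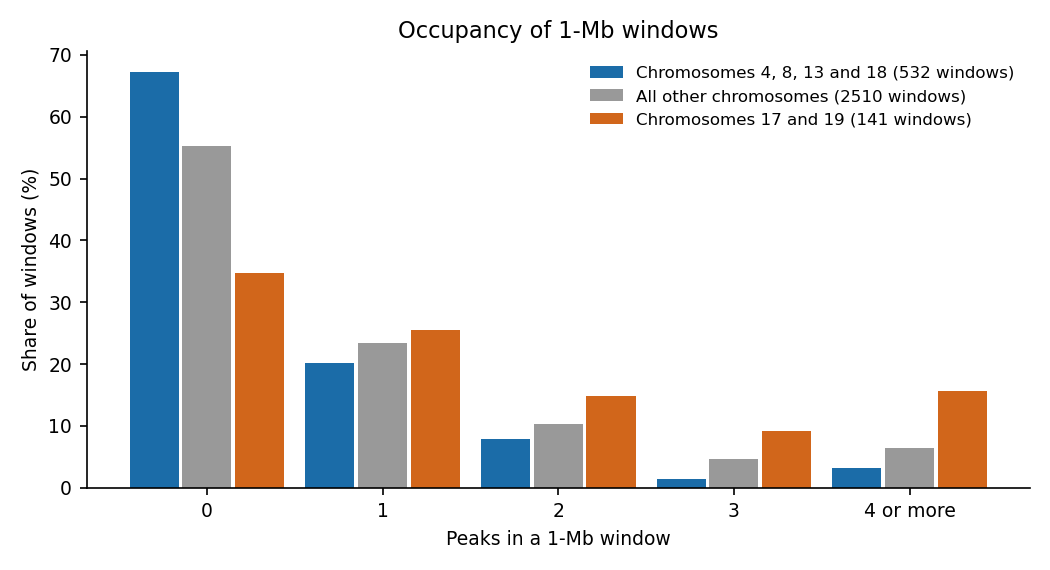
Share of 1-Mb windows (vertical axis, in percent) that hold 0, 1, 2, 3 or at least 4 peaks, on chromosomes 4, 8, 13 and 18, on all other chromosomes, and on chromosomes 17 and 19, which are also part of the grey bars. Empty windows make up 67.3%, 55.3% and 34.8%, and windows with at least 4 peaks 3.20%, 6.37% and 15.6%.

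Long stretches without a peak took up more of chromosome 4 than of any other of the 23 chromosomes. The median gap between successive peaks was 753 kb on the 4 chromosomes, against 308 kb on the others. It was 516 kb on chromosome 8, 628 kb on chromosome 4, 1130 kb on chromosome 18 and 1570 kb on chromosome 13. By chromosome, it spanned 39.5 kb to 776 kb over the 19 others around a median of 400 kb. Chromosomes 20, 2, 22 and 3, with 776, 685, 641 and 634 kb, exceeded chromosome 4. These and chromosome 14, with 520 kb, exceeded chromosome 8. A wide median gap was therefore not particular to chromosomes 4 and 8, while chromosomes 13 and 18 lay above all 19. On the 4 chromosomes gaps longer than 5 Mb numbered 25. Chromosome 4 had 11 of them, chromosome 8 had 8, chromosome 18 had 4 and chromosome 13 had 2. They took up 195 Mb, or 38.5% of the span, against 25.3% elsewhere. On chromosome 4 this share was 47.8%, above the highest of the 19 other chromosomes, 46.0% on chromosome 9. It was 35.5% on chromosome 8, 33.0% on chromosome 18 and 29.0% on chromosome 13, and 4, 5 and 6 of the 19 others lay above these values.

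The longest empty stretch, 16.6 Mb, ran on chromosome 4 from 22729648 to 39298959. The peaks at its edges were unremarkable, with scores of 76.47 and 68.6. The next stretches on this chromosome ran from 155462083 to 165110736 (9.65 Mb) and from 178581141 to 187630007 (9.05 Mb). Their edges were peaks near the lowest score in the list, of 52.78 and 54.6 and of 54.59 and 55.19. Chromosome 13 had a stretch of nearly the same length as the longest, 16.4 Mb from 82265418 to 98662151, which ended at a peak of score 53.5. The second of this chromosome was 11.3 Mb from 55015472 to 66361446. Its next, 4.54 Mb from 77725093 to 82264067, was separated from the longest by a single peak. The 3 together took up 33.6% of the span of chromosome 13, against 18.6% for the 3 longest on chromosome 4.

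Empty stretches on chromosomes 8 and 18 were shorter. On chromosome 8 they ran from 83204615 to 90770093 (7.57 Mb), from 125581291 to 132927428 (7.35 Mb) and from 132928340 to 139815373 (6.89 Mb). The last 2 of these were parted by 1 peak of score 51.22, near the lowest score in the list. On chromosome 18 they ran from 47813017 to 55505930 (7.69 Mb), from 59828693 to 66526170 (6.70 Mb) and from 23751290 to 29100769 (5.35 Mb). The stretch of 7.69 Mb began after a peak of score 50.95. Among the 19 other chromosomes the longest gap had a median of 7.14 Mb and reached 23.7 Mb on chromosome 9. Stretches of this length were therefore not restricted to the gene-poor chromosomes. How far they coincide with unsequenced sequence, centromeres or gene deserts of hg19 was not analysed here.

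The fullest 30 Mb of each of the 4 chromosomes held more than its share of the peaks, as the fullest stretch of any chromosome tends to. Such stretches were not sought on the other chromosomes. On chromosome 13, 21 of 41 peaks (51.2%) lay between 20 and 50 Mb, a stretch equal to 31.3% of its span, and between 80 and 110 Mb each bin of 10 Mb held no more than 2. On chromosome 18, 21 of 36 peaks (58.3%) lay in the first 30 Mb, equal to 39.9% of the span. Chromosome 4 had 32 peaks (28.6%) between 100 and 130 Mb, equal to 15.8% of the span, and 1 peak in each of the bins from 90 to 100 Mb and from 180 to 190 Mb. Chromosome 8 had 29 peaks (26.9%) between 20 and 50 Mb, equal to 20.5% of the span. As many lay between 100 and 130 Mb, where the bins held 13, 6 and 10, so it had no single fullest stretch. These stretches were picked as the fullest after the positions were seen, so they describe the list only. Since 30 Mb is a different share of each span, they do not rank the 4 chromosomes by unevenness.

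The first and last peaks showed how near the ends recovered RNA was mapped. On chromosome 8 the first peak started at 87778 and the last ended at 146279040. On chromosome 4 the first started at 433257 and the last ended at 190396575. Chromosome 18 began later, at 2595368, and ended at 77773331 with a peak of score 166.39, the second highest of that chromosome. Chromosome 13 ended at 115048167 with a peak of score 55.63.

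**Figure D3:**
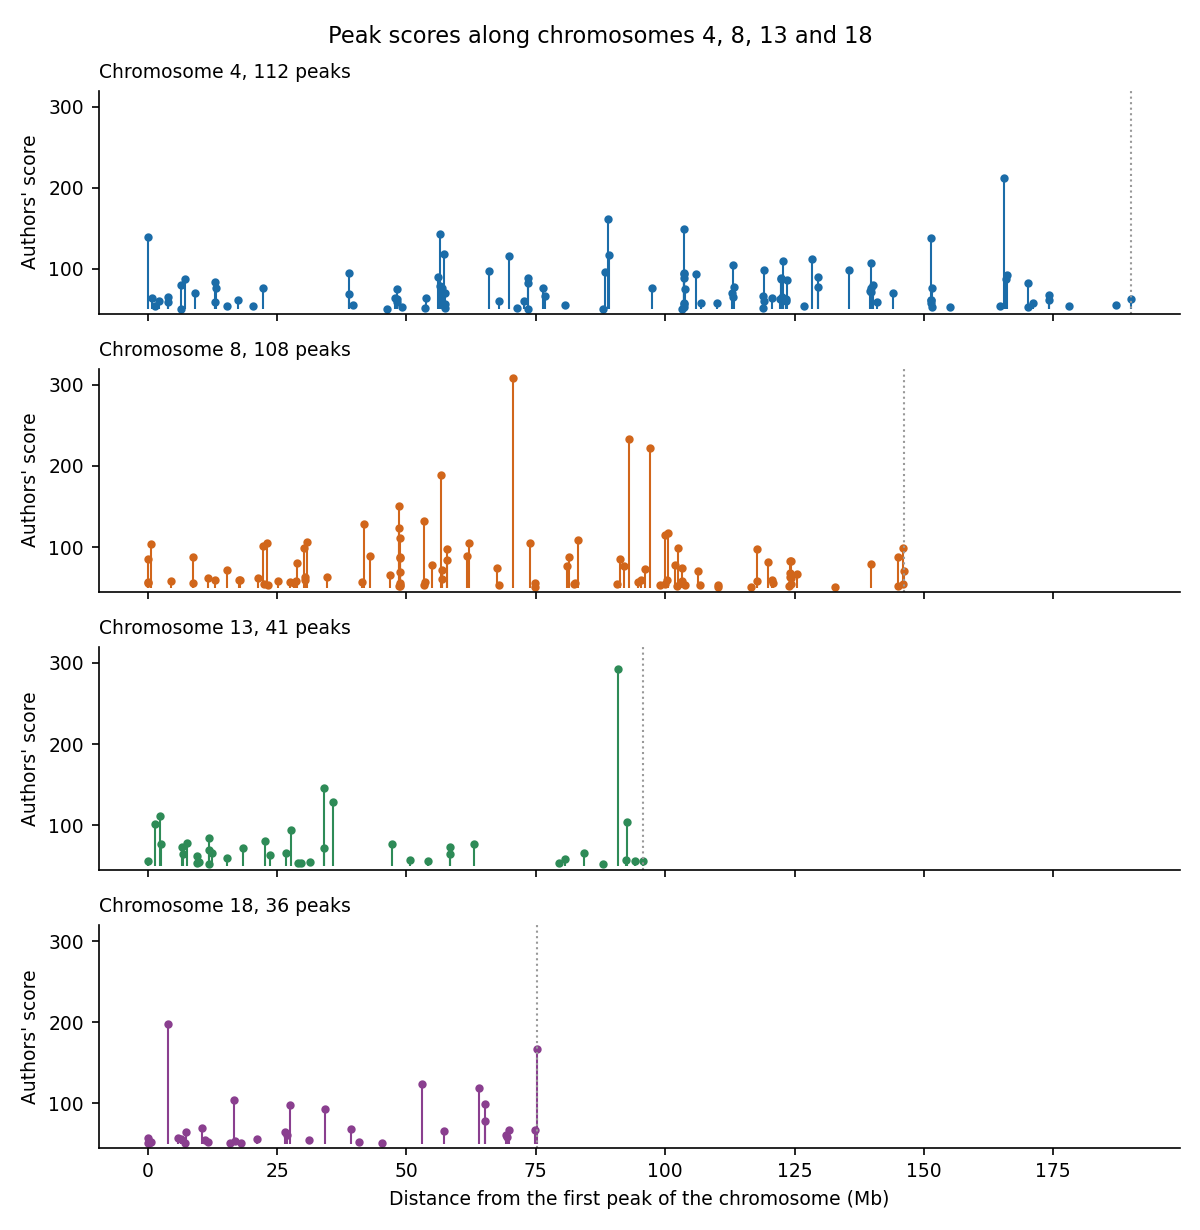
Authors' score of each peak (vertical axis) against its distance from the first peak of the chromosome in Mb, for chromosomes 4, 8, 13 and 18; the dotted line marks the last peak. The gaps of 16.6 Mb on chromosome 4 and 16.4 Mb on chromosome 13 are the widest, and the tallest lines are those of scores 307.8 on chromosome 8 and 292.42 on chromosome 13.

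The fullest 1-Mb window of the 4 chromosomes was on chromosome 8, where 10 peaks lay within 165 kb from 48711325 to 48875835. Scores there spanned 51.93 to 150.38 around a median of 78.0. Of the 10 peaks, 6 exceeded 65.9, the median of all listed peaks. Most were short, from 376 to 2316 bp at a median of 463 bp. The highest pair of the locus stood side by side, a peak from 48733949 to 48734361 with a score of 150.38 and a peak from 48736188 to 48736563 with a score of 123.53. The gaps were uneven, from 1826 bp to 48.3 kb, and the peaks covered 4.74% of the locus.

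The next fullest window held a locus that was more compact and denser per kb. On chromosome 4, 7 peaks lay within 41.5 kb from 104041092 to 104082615 and covered 24.5% of it. Its scores spanned 53.68 to 149.08, with the highest on the last peak, from 104081528 to 104082615. Lengths ran from 401 to 3131 bp with a median of 1088 bp, more than that of the locus on chromosome 8, and the median gap was 3.85 kb. An eighth peak of the same window followed after 124 kb.

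Chromosome 8 had another locus of this kind, with 6 peaks over 189 kb from 124194904 to 124384058. Its scores were lower and more alike, from 54.96 to 83.18 with a median of 65.5. A further peak, of score 52.05, belonged to the same 1-Mb window, which thus held 7. These 3 loci were the only runs of at least 5 peaks on the 4 chromosomes when a run was defined by gaps under 100 kb. They took in 23 peaks (7.74%), and the 42 such runs elsewhere took in 13.7% of the peaks there.

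**Figure D4:**
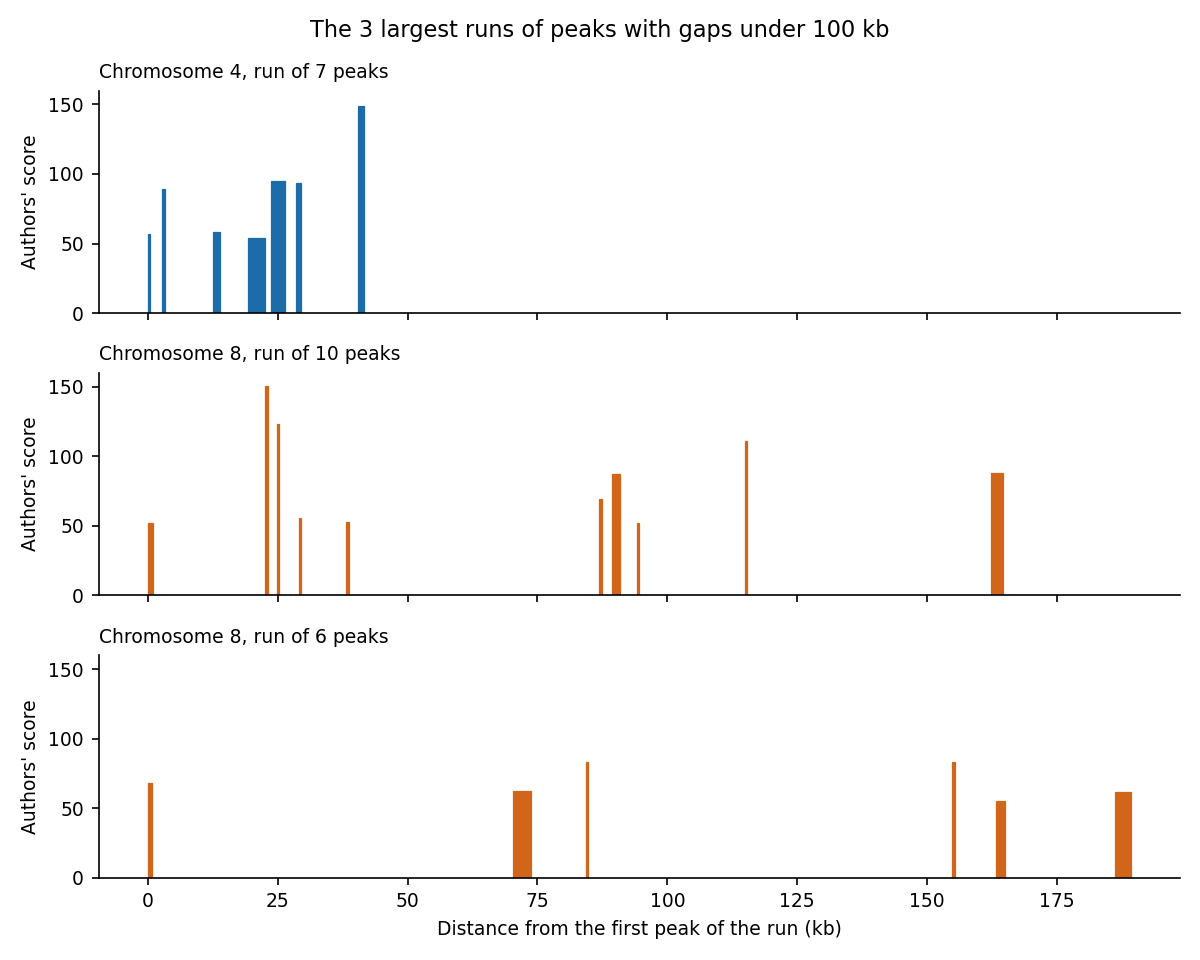
Authors' score (vertical axis, from 0) of the peaks in the 3 largest runs, against distance from the first peak of the run in kb; the width of each bar is the length of the peak. The run on chromosome 4 packs 7 peaks into 41.5 kb, while the runs of 10 and of 6 peaks on chromosome 8 extend over 165 and 189 kb.

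Smaller runs of 3 or 4 peaks numbered 13. Chromosome 4 held 8 of them. They started at 48529289, 57856919, 73955905, 119381089, 122722530, 123844255, 140265328 and 151754756. The last, over 72.8 kb, had 4 peaks and contained the closest pair of the 4 chromosomes, 454 bp apart, whose scores were 61.22 and 138.15. In the run starting at 140265328 all 3 scores were above the overall median, from 70.98 to 107.63. Chromosome 8 had runs starting at 87778, 53554665 and 103297168, the first at the very beginning of its list with 3 peaks in 42.7 kb. The middle of these held a peak of score 132.46 and 2726 bp between neighbours of 53.45 and 56.39.

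Chromosomes 13 and 18 had 1 run each. On chromosome 13 it covered 38.2 kb from 31001834 to 31040068, with scores from 52.36 to 84.21. On chromosome 18 it covered 153 kb from 2595368 to 2747879, and none of its 3 scores, from 50.52 to 56.54, exceeded the overall median. Runs of at least 3 peaks took in 63 of the 297 peaks (21.2%), against 27.3% of the peaks elsewhere.

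Windows with at least 4 peaks lay on chromosome 4 in the Mb starting at 48, 57, 104, 113, 119, 122, 123, 140 and 151 Mb. The windows starting at 122 and 123 Mb adjoin, so that 8 peaks lay between 122722530 and 123949709. On chromosome 8 such windows started at 0, 30, 48, 100, 103 and 124 Mb. The single windows of chromosomes 13 and 18 started at 31 and at 2 Mb, with 4 peaks each. Median scores of the 17 windows ran from 51.3, in the window of chromosome 18, to 86.9, in the window of chromosome 8 that starts at 100 Mb.

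Close neighbours were fewer than in the list as a whole, but several single chromosomes outside the 4 had fewer still. Shares of neighbours and of isolated peaks, like empty windows and gaps, depend on the number of peaks per Mb. They were not adjusted for the lower density of the 4 chromosomes, so they are not separate from it. Another peak within 1000 bp was found for 4 of the 297 peaks (1.35%, from 0.368% to 3.41%), all on chromosome 4, against 5.27% of all listed peaks. These 4 peaks formed 2 pairs. Being a neighbour is mutual, so peaks counted in this way are not independent, and the intervals in this paragraph are too narrow. Within 10 kb, 31 peaks (10.4%, from 7.20% to 14.5%) had a neighbour, against 20.2% of all listed peaks and 21.4% (19.8% to 23.1%) of those on the other chromosomes. By chromosome, that share spanned 6.90% to 48.3% over the 19 others around a median of 14.5%, and 5 of the 19 lay below 10.4%. No peak of chromosome 18 had a neighbour that close (0 of 36, with an upper Clopper-Pearson limit of 9.74%). Without the runs of 10 and 7 peaks described above, 18 of the remaining 280 peaks (6.43%) had a neighbour within 10 kb, so 13 of the 31 belonged to these 2 loci. Within 100 kb, 109 peaks (36.7%, from 31.2% to 42.5%) had a neighbour, against 47.2% of all listed peaks, and 5 of the 19 others lay lower. Chromosomes 4 and 8, with 44.6% and 43.5%, were near the whole list, and chromosomes 13 and 18, with 17.1% and 13.9%, were well below it.

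At the other end, 68 peaks (22.9%) had no other peak within 1000 kb, against 12.1% elsewhere and 4.39% on chromosomes 17 and 19. Chromosome 13 stood out in this respect, with 20 of its 41 peaks (48.8%). The median distance to the nearest peak was 954 kb on chromosome 13, 413 kb on chromosome 18, 159 kb on chromosome 4 and 148 kb on chromosome 8. Over the other chromosomes it was 109 kb.

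Peak lengths were close to those of the rest of the list. The median was 856 bp, with quartiles of 535 and 1305 bp, against 849 bp with quartiles of 513 and 1352 bp elsewhere. Together the peaks covered 333393 bp, or 0.0657% of the span. The shortest measured 322 bp and the longest 6821 bp. A length under 500 bp was found for 65 peaks (21.9%, from 17.3% to 27.0%), against 24.1% of all listed peaks. At the other end, 31 peaks (10.4%, from 7.20% to 14.5%) reached 2000 bp, against 14.0% of all listed peaks. The medians were 884 bp on chromosome 4, 829 bp on chromosome 8, 845 bp on chromosome 13 and 690 bp on chromosome 18. The last was the second lowest of the 23 chromosomes, from only 36 peaks.

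Of these 31 broad peaks chromosome 8 held 16 (14.8% of its peaks) and chromosome 4 held 11 (9.82%). Chromosomes 13 and 18 held 2 each (4.88%, from 0.596% to 16.5%, and 5.56%, from 0.680% to 18.7%), too few to tell from the whole list. The longest ran on chromosome 8 from 91267465 to 91274285 (6821 bp, score 85.58) and from 41882028 to 41888708 (6681 bp, score 128.07), followed there by a peak from 73968213 to 73972943 (4731 bp, score 104.43). On chromosome 4 the longest ran from 13600347 to 13606683 (6337 bp, score 76.23), from 433257 to 438519 (5263 bp, score 139.21) and from 129988300 to 129992608 (4309 bp, score 78.01). The peak starting at 433257 is also the first of its chromosome and among its 5 highest scores. On chromosome 18 the longest started at 8916401 and at 72342911, with 4742 and 4124 bp, and a peak at 19389207 measured 1959 bp. Their scores were 55.77, 67.35 and 53.12, against a median of 59.5 on this chromosome. Chromosome 13 had no peak beyond 3354 bp, the length of the one starting at 45912001. It was followed by the peaks starting at 28788204 (2324 bp) and 111906319 (1713 bp).

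Scores resembled the rest of the list, and the smaller share of high values lay within counting error. The median was 65.1 with quartiles of 55.7 and 87.0, against 66.0 with quartiles of 56.4 and 85.8 elsewhere. A score above 65.9, the median of all listed peaks, was reached by 144 of 297 peaks (48.5%, from 42.7% to 54.3%), against 50.0% of the list by definition. A score above 100 was reached by 42 peaks (14.1%, from 10.4% to 18.6%), against 16.0% of all listed peaks. A score above 200 was reached by 5 (1.68%, from 0.549% to 3.88%), against 2.53% of all listed peaks. These intervals include the shares of the whole list. The highest score, 307.8, ranked 13 in the list, whose maximum was 735.93.

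Among the 4, chromosome 18 had the lowest scores. Its median score of 59.5 was the lowest of the 23 chromosomes, but chromosome 22 was close with 59.7. On chromosome 18, 13 of 36 peaks (36.1%) scored under 55, against 20.0% on the chromosomes outside the 4. The medians of chromosomes 4, 13 and 8 were 67.4, 65.5 and 62.9. On chromosome 18, 14 peaks (38.9%, from 23.1% to 56.5%) exceeded the overall median, an interval that still includes 50.0%.

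Of the 5 peaks above 200, 3 had no other peak within 1000 kb, against 68 of all 297 (22.9%) and 13.3% of all listed peaks. A group of 5 is too small to relate score to isolation. On chromosome 8 the top peak, from 70601917 to 70602857 with a score of 307.8, stood 2700 kb and 3370 kb from its neighbours. The next on this chromosome ran from 93179422 to 93179780 (score 233.52, 359 bp), from 97242823 to 97244573 (score 221.62, 1751 bp) and from 56754768 to 56755436 (score 189.39, 669 bp). The fifth was the peak of score 150.38 in the locus of 10 peaks.

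Chromosome 13 owed its top value to a single peak. It ran from 110076216 to 110076692, scored 292.42 over 477 bp, and had its neighbours 2880 kb and 1510 kb away. The second score of the chromosome was less than that by a wide margin, 145.87 for the peak from 53216362 to 53217998. The others among its 5 highest scored 128.12, 110.94 and 104.27 and started at 55014578, 21522086 and 111906319. The first of these is the last before the empty stretch of 11.3 Mb.

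On chromosome 4 the highest score was 211.77, for the peak from 165864404 to 165865437. It was followed by 161.01 for the peak starting at 89444024, 149.08 for the last peak of the compact locus, 142.91 for a peak of 356 bp starting at 56963556, and 139.21 for the first peak of the chromosome. On chromosome 18 the peak from 6461861 to 6463027 scored 197.58, and the last peak, from 77772839 to 77773331, scored 166.39. The next scores of that chromosome were 123.3, 118.48 and 104.03, for peaks starting at 55505931, 66526171 and 19192270. Of the 5 highest peaks of chromosome 18, 4 were shorter than 500 bp, against 9 of all its 36 peaks. Among the 5 highest peaks of the other chromosomes, this held for 1 on chromosome 4, 1 on chromosome 13 and 2 on chromosome 8. The peak starting at 55505931 lay alone between empty stretches of 7.69 and 4.32 Mb.

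Length and score were nearly unrelated over the 297 peaks, with a Spearman's rho of 0.03 and a Pearson's r of 0.06. By chromosome, rho was -0.01 on chromosome 4, 0.04 on chromosome 8, 0.24 on chromosome 13 and -0.05 on chromosome 18. These are descriptions across peaks of 1 library. Scores were also summarised by class of length. Peaks under 500 bp had a median score of 72.8, and 13 of 65 (20.0%) scored above 100. Peaks from 500 to under 1000 bp had a median of 59.9, and 9 of 119 (7.56%) did. Peaks from 1000 to under 2000 bp had a median of 71.2, and 14 of 82 (17.1%) did. Of the 31 peaks of at least 2000 bp, with a median of 67.3, 6 (19.4%) scored above 100 and none above 200. On the other chromosomes the same 4 classes had medians of 70.2, 63.1, 64.4 and 71.2. Shares above 100 were 18.3%, 13.1%, 13.7% and 25.1% there, with little difference between the middle classes.

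**Figure D5:**
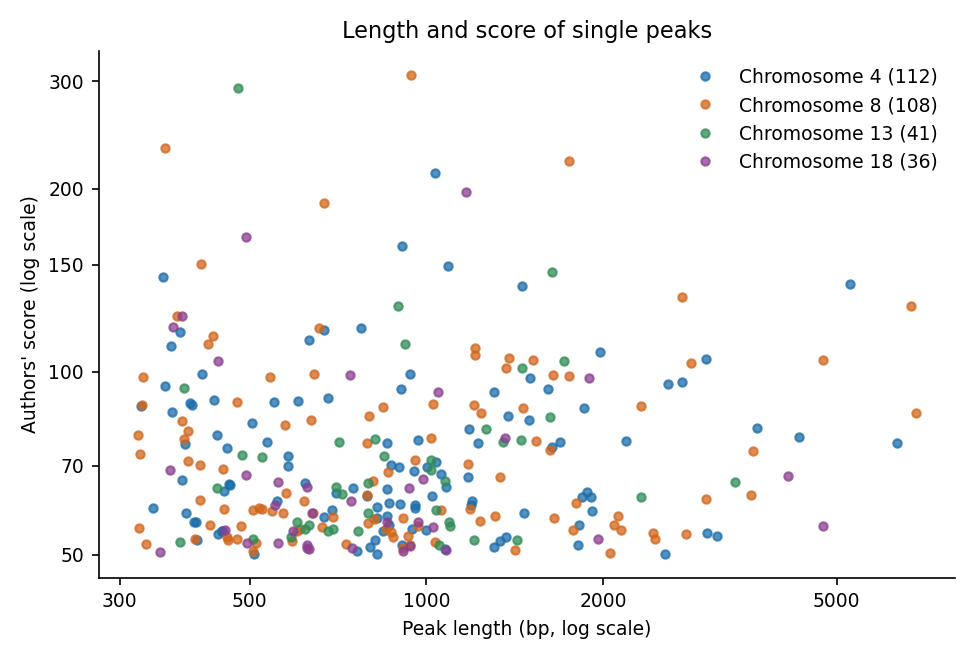
Authors' score (vertical axis, log scale) against length in bp (horizontal axis, log scale) for each of the 297 peaks, coloured by chromosome. Most points lie at scores under 100 across the lengths shown, and the 5 peaks above 200 measure between 359 and 1751 bp.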

How the data were processed

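The authors deposited 1 peak list, of the HA immunoprecipitate, with the start and end of each peak and a score. Per the submitters' processing notes the build was hg19, and the tools were Bowtie2, bedtools, cutadapt, SAMtools and UMI-tools 1.0.0. The peak names in the deposited file start with MACS. The caller's version, threshold and control, and the treatment of reads with several positions, are not stated there or in the labels. The scale of the authors' score is not stated, so it served only to rank and describe peaks. The list has no strand and no read counts.

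Members were chosen by chromosome. The members and the rules were chosen with earlier results of these data known. The rule for named peaks took, per chromosome, the 5 highest scores, the 3 longest peaks, the first and last peak, windows with at least 4 peaks, the 3 longest gaps and runs of at least 3 peaks with gaps under 100 kb. Genes per chromosome came from RefSeq (GRCh38.p14). No sequence is shown because no hg19 sequence was used. The functions were tested on simulated lists. Tables were made in Python 3.11.15 with pandas 2.3.3, scipy 1.17.1 and numpy 2.4.6, and plots with matplotlib 3.10.9.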

Additional observations from a re-analysis of the deposited data

How the results depend on the processing

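The lower density of the 4 chromosomes kept its direction under every alternative tried: the other chromosomes were 1.51-fold to 1.90-fold denser, against 1.70-fold as reported. With the higher-scoring 50.0% of the list, by construction, 144 peaks were left on the 4 chromosomes, at 0.298 per Mb against 0.519 elsewhere. Then 79.7% of windows were empty, the densest held 6 peaks, and the median length and score were 912.5 bp and 87.6. With peaks within 100 kb merged, the densities were 0.448 and 0.678 per Mb and the densest window held 3 loci. Empty windows were 46.4% at 2 Mb and 81.0% at 500 kb. The share with a neighbour was 1.35% within 1 kb, 36.7% within 100 kb and, in a check added after seeing the data, 6.43% within 10 kb without the runs of 10 and 7 peaks. The other 33 of 48 alternative values stayed within their counting interval or within 1.5 times the count. The number of peaks, 227 against 297 with peaks within 100 kb merged, met only the second of these limits. Unplanned checks are among the 33. They are windows from the first peak's window, and peaks per 100 genes and neighbours within 10 kb without 1 chromosome at a time. The planned share of peaks in genes was not run, since no annotation of hg19 was used. No paired analysis was possible because there is 1 library per group. Unknown depth, the single library and the unstated treatment of multiply mapping reads limit all values.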

Other observations

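Isolation and score were also set side by side. The 68 peaks of chromosomes 4, 8, 13 and 18 with no other peak within 1000 kb had a median score of 63.0 and a median length of 859.5 bp, and 9 of them (13.2%) scored above 100. The 109 peaks with a neighbour within 100 kb had medians of 62.6 and 878 bp, and 10 of them (9.17%) scored above 100. On the other chromosomes the corresponding shares above 100 were 19.7% of 290 isolated peaks and 15.9% of 1162 crowded ones. Of the 5 peaks above 200 on the 4 chromosomes, 3 were isolated, against 22.9% of all 297. The median isolated peak scored about as the median crowded one did.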
